A study of Homo sapiens with 16 samples.

Results

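The promoters of the EGR and NR4A genes, which encode transcription factors of the immediate early class, were picked out by gene symbol from maps of nucleosome fragments in GM12878 cells, a human B-lymphoblastoid line transformed by Epstein-Barr virus. Of the 7 symbols searched (EGR1, EGR2, EGR3, EGR4, NR4A1, NR4A2 and NR4A3), 5 matched a promoter, 1 each, among 21857 promoters of 21633 genes, and EGR2 and EGR3 are not analysed here. Cells of this 1 line were left untreated or were stimulated with heat-killed Salmonella typhimurium (HKST) for 20, 40 or 60 min, a stimulus of bacterial products without live infection. Nuclei were digested with 20 U (light) or 200 U (heavy) of micrococcal nuclease (MNase), which cuts DNA that is not protected by nucleosomes, and promoter fragments were captured and sequenced in 2 replicates of each of the 8 combinations of time and digest. The deposited values pool both replicates, so that no spread between replicates and no p-value can be given, all intervals are 95% intervals of the counting error alone, and a change with time cannot be told apart from tubes that were digested further or less far. The HKST times share the same untreated samples.

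Values are fragment centers per M fragments of the library (rpm, M for mega) in 60 bp windows, every 10 bp over the 2 kb around the start site, for fragments of 140 to 200 bp. The depth was 9.72 M light and 5.12 M heavy fragments in untreated cells, 10.5 M and 4.12 M at 20 min, 9.43 M and 3.27 M at 40 min, and 10.1 M and 7.04 M at 60 min. Numbers of fragments were recovered from the steps in the values. All 5 promoters had values in both digests at 40 and 60 min and in the light digest of untreated cells. The untreated heavy values did not cover EGR4, and the only 20 min values were those of NR4A1 in the heavy digest, so the sensitivity at 20 min was not analysed here. As a check of the cell type, for which fewer fragments over the start site are known at active promoters, the summed light and heavy signal from -100 to 50 bp had a median of 0.72 rpm over the promoters of 7 B cell marker genes and 3.52 rpm over those of 9 genes of other tissues in untreated cells, against 0.45 rpm over all promoters.

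Immediate early genes are switched on within minutes of a stimulus from factors that the cell already holds, without new protein synthesis. EGR1 and EGR4 encode zinc finger proteins that bind GC-rich sites, and NR4A1, NR4A2 and NR4A3 encode orphan nuclear receptors that bind DNA as monomers or dimers. In lymphocytes EGR1 and the NR4A genes are known targets of antigen receptor signaling. Their promoters are known to respond to serum response factor, which binds the CArG box, and to CREB, which binds the cyclic AMP response element. A nucleosome upstream of the start site (the -1 nucleosome, -200 to 0 bp), a nucleosome-depleted region over the start site and a nucleosome downstream (the +1 nucleosome, 50 to 250 bp) form the usual layout of an active promoter. Fragments released in the light digest and lost in the heavy digest are MNase-sensitive, and fragments that withstand the heavy digest are MNase-resistant.

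The start sites of EGR1, EGR4 and NR4A3 were at chr5:137801181 (plus strand), chr2:73520829 (minus strand) and chr9:102584137 (plus strand) of hg19. The start sites used fell on a GENCODE transcript start for EGR4, NR4A1 and NR4A3, and 13 bp from one for EGR1 and NR4A2. NR4A1 has 22 annotated transcripts with several starts, and the promoter described is that of 1 start. Downstream, the first 1000 bp held 577 bp of exon in EGR1 (270 bp of UTR and 307 bp of coding sequence), 600 bp in EGR4, 171 bp in NR4A1, 465 bp in NR4A2 and 553 bp in NR4A3, where in the NR4A genes all of it was UTR. Antisense long noncoding RNAs are annotated within the 2 kb of EGR1 (ENSG00000289267) and NR4A3 (STX17-DT).

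The sequence upstream of the start site is shown for EGR1, EGR4 and NR4A3 because it covers the -1 window in which the fragments below were counted. It is read 5′ to 3′ on the strand of the gene, from -200 bp to the start site (for EGR1 to -13 bp, where the annotated transcript starts), at chr5:137800981-137801167 for EGR1, chr2:73520830-73521029 for EGR4 and chr9:102583937-102584136 for NR4A3 of hg19. Capitals mark every match to the motifs named after the sequences.
EGR1: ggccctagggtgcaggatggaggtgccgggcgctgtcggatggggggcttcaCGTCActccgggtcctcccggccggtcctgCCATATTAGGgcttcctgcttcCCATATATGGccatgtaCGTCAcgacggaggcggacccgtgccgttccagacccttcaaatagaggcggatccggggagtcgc
EGR4: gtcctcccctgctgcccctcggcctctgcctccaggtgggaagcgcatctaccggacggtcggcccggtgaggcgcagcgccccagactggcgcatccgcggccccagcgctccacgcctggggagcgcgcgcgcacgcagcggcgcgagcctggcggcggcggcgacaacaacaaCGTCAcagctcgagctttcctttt
NR4A3: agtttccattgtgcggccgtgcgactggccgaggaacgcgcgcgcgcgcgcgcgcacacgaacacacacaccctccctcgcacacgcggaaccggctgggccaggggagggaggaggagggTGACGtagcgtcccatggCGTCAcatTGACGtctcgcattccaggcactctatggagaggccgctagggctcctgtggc
The motifs searched on both strands were TGACGTCA (the full CREB site), TGACG (the short CREB site, which lies within the full site), TGANTCA (AP-1), GCGNGGGCG (EGR), AAAGGTCA (NR4A monomer), GGGANTTCC and GGGGNTTCC (NF-kB), the CArG box and TATAAA (the TATA box).

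The 3 promoters shown each held at least 1 short CREB site between -200 and 0 bp, which 19.4% of the 21857 promoters hold. NR4A3 held 3 separate short sites, at -79 to -74 bp, -61 to -56 bp and -53 to -48 bp. EGR1 held 2, at -148 to -143 bp and -79 to -74 bp, and EGR4 held 1, at -24 to -19 bp. EGR1 alone of the 3 held CArG boxes, at -118 to -108 bp and at -96 to -86 bp, against 0.888% of all promoters. No match to the full CREB, AP-1, EGR, NR4A or TATA letters, nor to either NF-kB form, was found in the 3 stretches shown. The shares over all promoters were 1.70% for the full CREB site, 4.23% for AP-1, 9.02% for EGR, 0.705% for NR4A, 7.91% for TATA, and 1.29% and 1.72% for the NF-kB forms. The GC content of the 200 bp was 65.0% in EGR1, 73.0% in EGR4 and 67.5% in NR4A3, against a median of 61.0%. These matches are a description of letters, and binding was not measured.

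The layout of nucleosomes differed from promoter to promoter. Over the 2 kb the mean summed signal of both digests, averaged over 40 and 60 min, was 1.32 rpm at EGR1 (percentile 14.5 of all promoters), 2.17 rpm at EGR4, 2.95 rpm at NR4A1, 3.07 rpm at NR4A2 and 2.74 rpm at NR4A3, against a median of 2.27 rpm. EGR1 was thus poor in nucleosome fragments by the mean over the 2 kb, but not in every stretch and digest. From 250 to 1000 bp the heavy signal of EGR1 stood at percentiles 63.5 (untreated), 71.1 (40 min) and 64.3 (60 min). The light signal of EGR1 there stood at percentiles 32.0, 39.9 and 22.2. The means of the NR4A promoters over the 2 kb lay above the median. Over all pairs of these promoters the correlation of the profiles across positions was between -0.17 (EGR4 with NR4A3) and 0.48 (NR4A1 with NR4A2). Positions overlap and are not replicates, and EGR4 had the lowest values in this set.

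**Figure D1:**
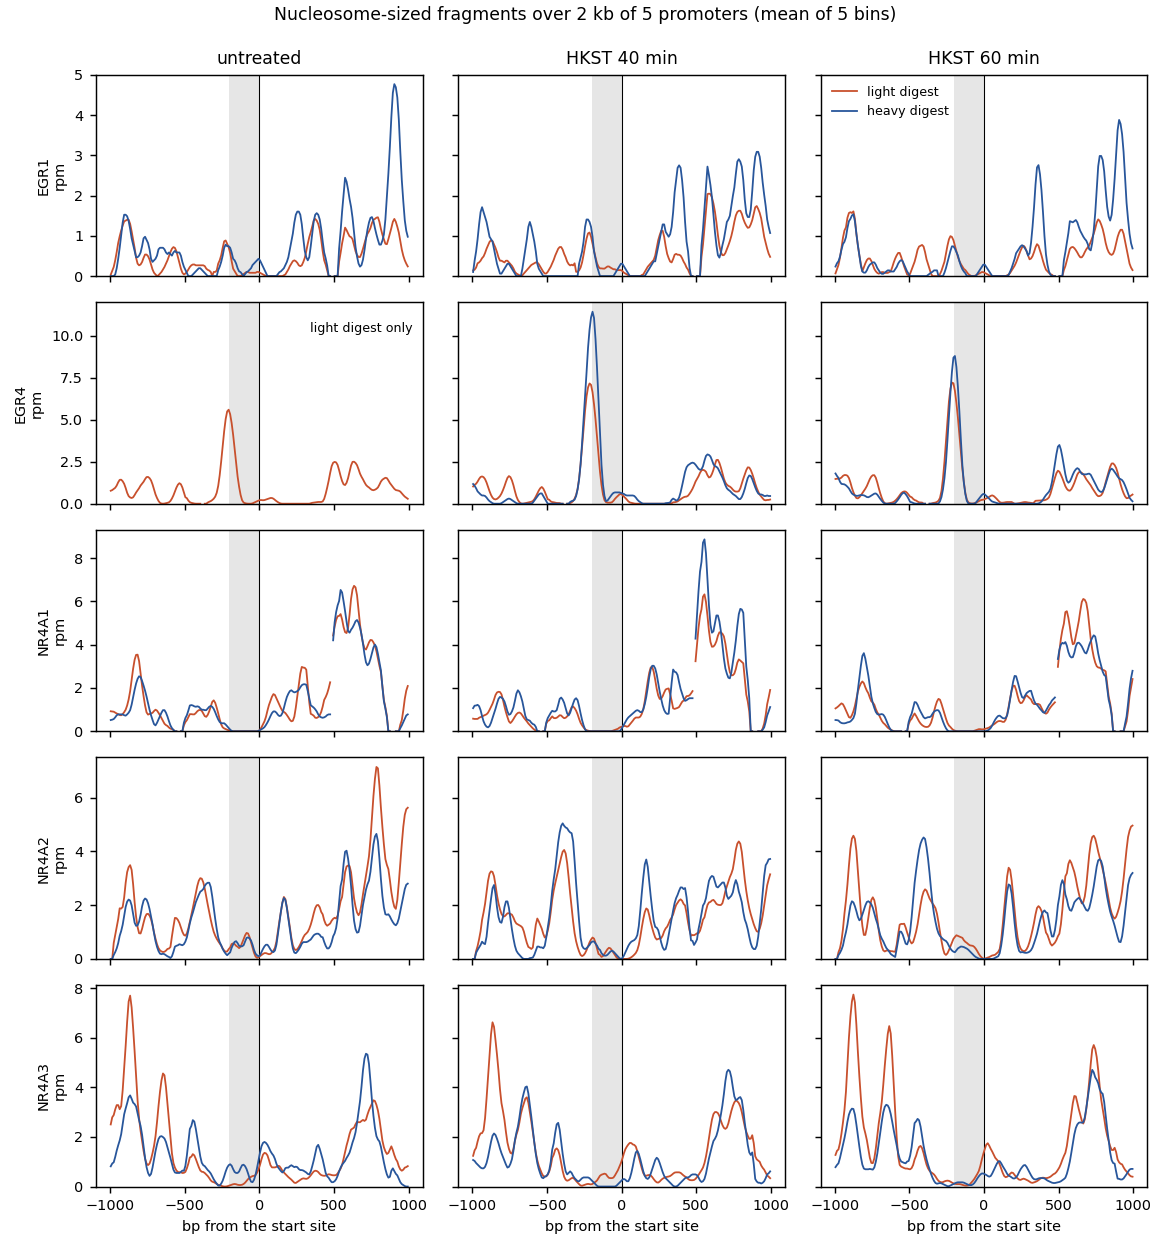
Signal (rpm, mean of 5 bins) against distance from the start site (bp) for the 5 promoters in rows and untreated cells, 40 min and 60 min of HKST in columns, with the light digest in red and the heavy digest in blue, and the -200 to 0 bp window in grey. EGR4 has a single tall peak near -210 bp, NR4A1 is empty or nearly so from -200 bp to the start site, and the tallest light peak of NR4A3 lies near -870 bp.

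EGR4 carried 1 dominant nucleosome centred near -210 bp, where the smoothed sum of both digests reached 17.0 rpm. Between -280 and -130 bp the light digest of untreated cells gave 85 fragments, that of 40 min gave 113 and that of 60 min gave 117, which is 8.76, 12.0 and 11.6 fragments per M. The counting intervals of these counts are 67.9 to 105, 93.1 to 136 and 96.8 to 140. Each is the interval of 1 count alone, and their overlap does not decide whether the ratio between times passes counting error. An interval of that ratio was not computed for this peak. The heavy digest gave 61 fragments at 40 min and 88 at 60 min, from fewer fragments in all, which is a mean of 7.41 and 4.99 rpm, where the light digest had 4.81 and 4.64 rpm at these times. The log2 of light over heavy at this nucleosome was -0.61 at 40 min (-1.10 to -0.16) and -0.10 at 60 min (-0.52 to 0.31), so that it was MNase-resistant at 40 min beyond counting error. The -1 window, into which this nucleosome reaches, was fuller than the 2 kb mean of EGR4 by 0.82 on the log2 scale, a value at percentile 94.6 where the median promoter had -0.82. Downstream, the signal was low for 320 bp, from 70 to 390 bp, and 6 of the 32 bins there had no value. The next peaks stood near 500 and 850 bp.

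NR4A1 had the emptiest -1 window of the 5. No fragment fell between -200 and 0 bp in either digest of untreated cells, which allows up to 0.309 light and 0.586 heavy fragments per M when the limit of a count of 0 is taken as 3 fragments. The heavy digest gave 0 fragments there at 20, 40 and 60 min too, with limits of 0.728, 0.917 and 0.426 per M, and the light digest gave 1 fragment at 40 min and 1 at 60 min. The stretch of low signal ran for 310 bp from -260 to 50 bp, against a median of 220 bp. Relative to its own 2 kb the -1 window stood at -3.58 on the log2 scale, at percentile 1.12. No sensitivity can be given for this window. Upstream, NR4A1 had a smaller peak near -820 bp (4.59 rpm), with 53 light and 23 heavy fragments in untreated cells. Most fragments of NR4A1 lay downstream, with the tallest peak near 550 bp (12.3 rpm, next to bins without a value). Light and heavy fragments there numbered 101 and 55 before HKST, 93 and 42 after 40 min and 93 and 53 after 60 min, and the log2 of light over heavy was -0.055, -0.39 and 0.28, with intervals that all include 0.

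NR4A2 and NR4A3 had a low stretch over or before the start site and peaks on both sides of it. The low stretch of NR4A2 ran for 240 bp from -140 to 100 bp, and that of NR4A3 for 290 bp from -330 to -40 bp. At NR4A2 the tallest peak lay near -400 bp. Its light and heavy fragments numbered 56 and 30 in untreated cells (log2 -0.028, interval -0.69 to 0.67), 73 and 36 at 40 min (-0.49, -1.10 to 0.11) and 50 and 60 at 60 min (-0.75, -1.35 to -0.22). It was thus MNase-resistant beyond counting error at 60 min, whereas the peak near -870 bp of the same promoter was MNase-sensitive then, with 71 light and 29 heavy fragments and a log2 of 0.75 (0.13 to 1.45).

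At NR4A3 the peak near -870 bp was MNase-sensitive at each time. Light and heavy fragments numbered 122 and 39 in untreated cells (log2 0.70, interval 0.19 to 1.28), 105 and 12 at 40 min (1.53, 0.74 to 2.60) and 127 and 38 at 60 min (1.20, 0.69 to 1.79). The 3 intervals overlap each other. The next peak, near -640 bp, had 68 light and 19 heavy fragments before HKST (0.84, interval 0.16 to 1.73). It had 62 and 23 after 40 min (-0.11, -0.81 to 0.66) and 100 and 44 after 60 min (0.65, 0.14 to 1.21). Here too the intervals overlap each other. Further in, the peak near -440 bp had 20 light and 20 heavy fragments in untreated cells (-0.82, interval -1.90 to 0.044), 19 and 11 at 40 min (-0.64, -1.88 to 0.48) and 26 and 30 at 60 min (-0.65, -1.54 to 0.082). Its intervals, and those of the peak near 730 bp, include 0 at each time.

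EGR1 had small peaks and a short low stretch of 170 bp, from 10 to 180 bp, downstream of the start site. Its tallest peak, near 900 bp and 4.89 rpm, was MNase-resistant beyond counting error in untreated cells and at 60 min, but not at 40 min. Light and heavy fragments there numbered 23 and 39 before HKST, 31 and 18 after 40 min and 19 and 42 after 60 min, and the log2 of light over heavy was -1.55 (-2.50 to -0.91), -0.69 (-1.63 to 0.18) and -1.53 (-2.53 to -0.85). The peak near 360 bp had a value of -0.047 (-1.14 to 1.00) before HKST, -1.73 (-3.16 to -0.63) after 40 min of it and -1.39 (-2.82 to -0.56) after 60 min. Its heavy fragments numbered 13, 14 and 24 and its light fragments 23, 11 and 11.

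The time course compares the -1 nucleosome after HKST with that of untreated cells. Sensitivity was taken as log2 of light over heavy after 0.119 rpm, which is 0.1 of the mean value, was added to both. A promoter is called higher or lower where it had at least 1 fragment in each digest at both times and the exact conditional interval of its fragments excludes 0. NR4A3 was called higher at 40 min, none of the other promoters was called at 40 or 60 min, and the counts behind the values are small.

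NR4A3 had 13 light fragments and 1 heavy fragment in the -1 window at 40 min, and 10 and 5 at 60 min, against 7 and 10 in untreated cells. The light fragments were thus more numerous than the heavy ones after HKST and fewer before it. Its sensitivity was 1.72 at 40 min, against -1.07 in untreated cells, a difference of 2.78 (0.22 to 9.16) at percentile 99.8 of the promoters measured. The size of this difference depends on the pseudocount, with 1.22 when 0.5 of the mean was added and 4.01 when 0.02 of it was, and it was 2.74 from -250 to -100 bp and 1.89 from -300 to 0 bp. At 60 min the sensitivity was 0.31, and the difference from untreated cells was 1.38 (-0.46 to 4.37). The single heavy fragment at 40 min came to 0.5 of a fragment in the window before rounding. With part fragments rounded down it became 0, the promoter no longer met the minimum of 1 fragment in each digest for a call, and the lower bound was 0.92.

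EGR1 had 8 light and 2 heavy fragments at 40 min, and 6 and 4 at 60 min, against 3 and 4 in untreated cells. The differences in sensitivity from untreated cells were 1.22 (-1.85 to 5.75) at 40 min and 0.72 (-1.95 to 4.84) at 60 min. NR4A2 had 8 and 3 fragments at 40 min, and 16 and 5 at 60 min, against 16 and 8 in untreated cells. Its differences were -0.027 (-2.74 to 2.70) and 0.78 (-1.06 to 3.33). Both intervals of each gene reach past 0 on either side by more than 1 log2 unit. EGR4 had 48 light and 33 heavy fragments at 40 min and 50 and 47 at 60 min, with 38 light fragments in untreated cells. Its sensitivity was -0.38 at 60 min, against -0.93 at 40 min, a difference of 0.54 (-0.37 to 1.48).

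The median difference of the measured members was 1.22 at 40 min (3 promoters) and 0.78 at 60 min (3 promoters), against medians of 0.097 and 0.051 over 12091 and 12245 promoters. Over the 3 promoters the 40 min median was 0.47 with a pseudocount of 0.5 of the mean and 1.82 with 0.02 of it. It was 0.10 in the window from -250 to -100 bp. In the window from -300 to 0 bp it was -0.098, over 4 promoters, since NR4A1 was measurable there too. The 3 others had -0.34 (NR4A2), 0.14 (EGR1) and 1.89 (NR4A3) in that window. The size of the median thus did not hold in every setting, and it fell below 0 only in the set with NR4A1. Of the 3 members with an interval at 40 min, 1 was called higher and 0 lower, where 1.83% of promoters were called higher and 1.57% lower. At 60 min 0 of 3 were called, where 2.29% were called higher and 2.36% lower. For 60 min minus 40 min the median of 4 members was 0.019, against -0.059 over all promoters, and 0 of 4 were called, where 1.44% were called higher and 2.29% lower. In untreated cells the order of -1 sensitivity was NR4A3 (-1.07), EGR1 (-0.80) and NR4A2 (0.036), at 40 min it was EGR4 (-0.93), NR4A2 (0.0087), EGR1 (0.43) and NR4A3 (1.72), and at 60 min EGR4 (-0.38), EGR1 (-0.080), NR4A3 (0.31) and NR4A2 (0.81). Neighbors in these orders have intervals that overlap at every time.

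**Figure D2:**
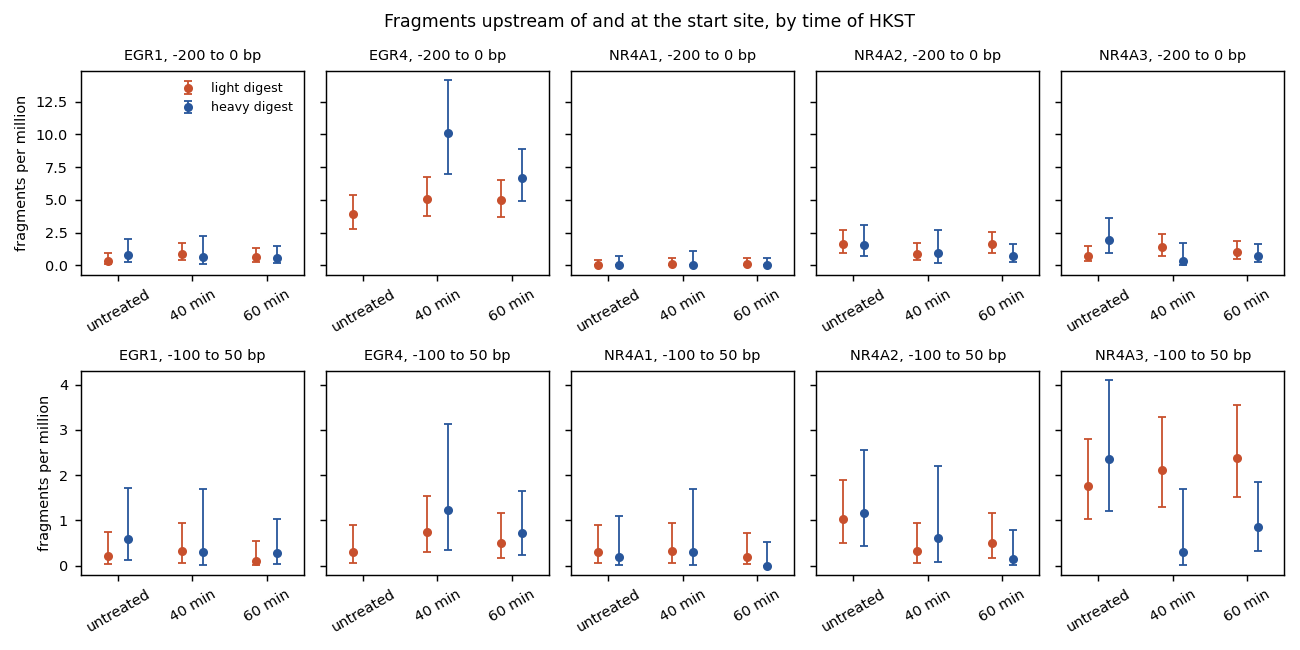
Fragments per M (mega) with exact Poisson 95% intervals (bars) in the light (red) and heavy (blue) digest of the 5 promoters in untreated cells and after 40 and 60 min of HKST, from -200 to 0 bp (top) and from -100 to 50 bp (bottom). EGR4 stands above the others from -200 to 0 bp, NR4A1 lies at or near 0, and the heavy fragments of NR4A3 from -100 to 50 bp number 12 before HKST, 1 at 40 min and 6 at 60 min.

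Taken by digest, 0 members were called between -200 and 0 bp at 40 or 60 min over untreated cells. At 40 min over untreated cells the light digest gave log2 ratios of -0.74 for NR4A2, 0.34 for EGR4, 0.64 for NR4A3 and 0.80 for EGR1, and 3.04% of all promoters were called higher and 2.73% lower. At 60 min it gave -0.024 for NR4A2, 0.26 for NR4A3, 0.31 for EGR4 and 0.45 for EGR1, where 3.2% were called higher and 4% lower. At 40 min the heavy digest gave -2.15 (-8.12 to 0.14) for NR4A3, -0.72 for NR4A2 and -0.43 for EGR1, where 1.64% were called higher and 1.94% lower. At 60 min over untreated cells the heavy digest gave -1.12 (-3.36 to 0.22) for NR4A3, -0.80 for NR4A2 and -0.26 for EGR1, where 1.69% were called higher and 3.86% lower. The heavy values of all 3 genes were lower after HKST at both times, and every interval includes 0.

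The region over the start site, -100 to 50 bp, was added after the values were seen, and shares its upstream bases with the -1 window, so its values are not separate evidence. NR4A3 had 20 light fragments and 1 heavy fragment there at 40 min, and 24 and 6 at 60 min, against 17 and 12 in untreated cells. Heavy fragments were fewer and light fragments slightly more after HKST. The sensitivity was 1.98 at 40 min and 1.22 at 60 min, against -0.37 in untreated cells. The differences were 2.36 (0.15 to 8.71) at 40 min and 1.60 (0.042 to 3.86) at 60 min, and both were called higher, where 1.52% of promoters at 40 min and 1.27% at 60 min were called higher and 1.72% and 2.63% lower. The bound at 40 min moved to -0.0019 when part fragments were rounded down, so that the call ended. In the heavy digest alone the ratio to untreated cells was -2.11 (-8.36 to -0.18) at 40 min, called lower, and -1.20 (-3.16 to 0.066) at 60 min. For NR4A2 the heavy ratio at 60 min was -1.71 (-8.57 to -0.0017), called lower on 1 fragment against 6. Of all promoters 1.62% at 40 min and 3.55% at 60 min were called lower in this digest, and 1.83% and 1.93% higher. EGR1 and NR4A1 had 3 fragments or fewer there in each digest and time.

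The +1 window, 50 to 250 bp, held more fragments than the -1 window at NR4A1, NR4A2 and NR4A3 at each time. NR4A1 had 46 light and 18 heavy fragments at 40 min and 33 and 29 at 60 min, against 33 and 20 in untreated cells, and differences in sensitivity of -0.0043 (-1.20 to 1.26) and -0.12 (-1.31 to 1.04). NR4A3 had 26 and 9 at 40 min and 22 and 15 at 60 min, against 20 and 16, with differences of 0.57 (-0.99 to 2.25) and 0.60 (-0.85 to 2.12). NR4A2 had 28 and 19 at 40 min and 46 and 24 at 60 min, against 32 and 16, with differences of -0.94 (-2.37 to 0.28) and 0.34 (-0.89 to 1.56). Its sensitivity was 0.37 at 60 min, against -0.91 at 40 min, a difference of 1.28 (0.18 to 2.59). It was the single member called between these times, where 1.39% of promoters were called higher and 2.92% lower. EGR1 had at most 6 fragments per digest and time in this window and differences of 1.42 (-1.09 to 8.72) and 0.78 (-1.95 to 4.84), and EGR4 at most 4 in each of the 4 digests measured at 40 and 60 min. Against untreated cells 0 of 4 members were called at either time, where 2.66% of promoters at 40 min and 2.56% at 60 min were called higher and 1.46% and 3.14% lower.

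**Figure D3:**
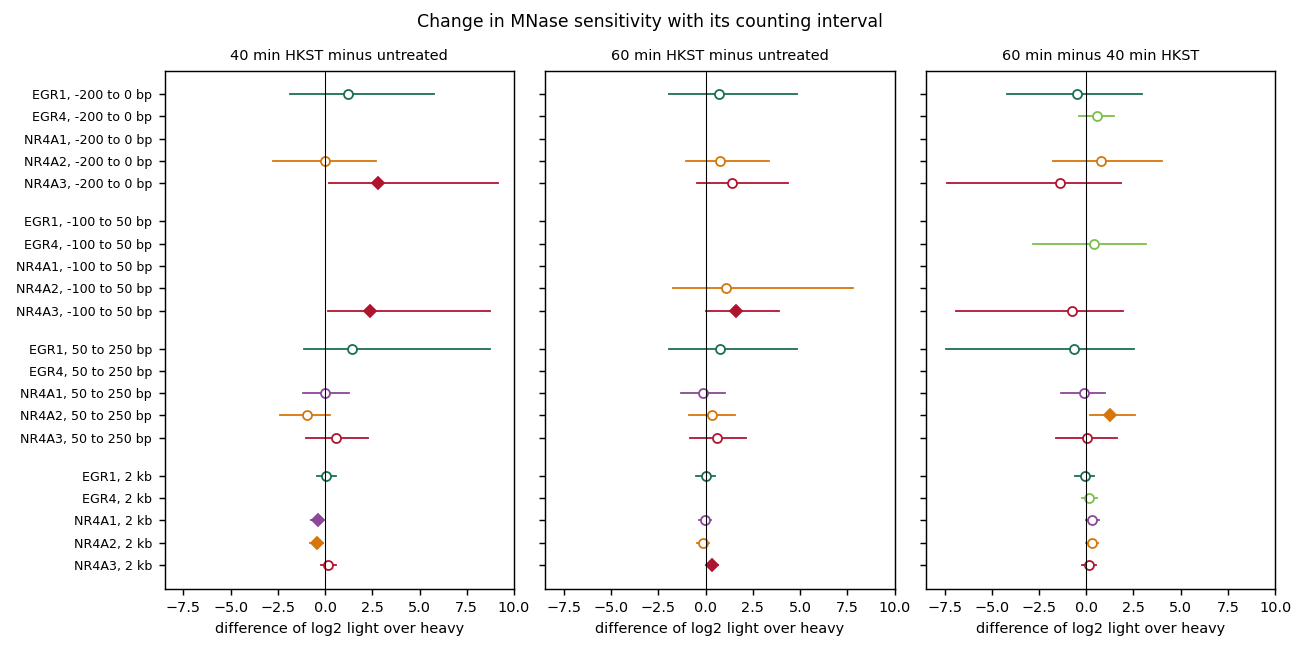
Difference in MNase sensitivity (log2 light over heavy) of each promoter and window, for 40 min minus untreated, 60 min minus untreated and 60 min minus 40 min, with exact conditional 95% intervals as lines, filled diamonds where the interval excludes 0 and open circles where it does not. Rows with no symbol had too few fragments or no untreated heavy value, and NR4A3 from -200 to 0 bp at 40 min lies at 2.78.

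Over the whole 2 kb, a span added after the values were seen, the counts were larger. In untreated cells EGR1 had 160 light and 132 heavy fragments, at 40 min it had 170 and 88, and at 60 min it had 147 and 162. Its log2 of light over heavy was -0.55, -0.49 and -0.54, at percentiles 12.8, 14.3 and 17.2 of all promoters, and each interval lay below 0. Its value was the lowest of the members measured at each time. NR4A3 had, in the same order, 456 and 217, 443 and 122, and 555 and 277 fragments, with log2 values of 0.13, 0.31 and 0.45. NR4A2 had 553 and 221, 463 and 167, and 539 and 318, with values of 0.37, -0.054 and 0.22. NR4A1 had 462 and 226, 392 and 166, and 429 and 287, with values of 0.097, -0.27 and 0.056. EGR4 had 284 light fragments before HKST, 303 and 124 of both kinds at 40 min and 322 and 233 at 60 min, with values of -0.21 and -0.050 at 40 and 60 min. The interval of EGR1 lay below those of NR4A1, NR4A2 and NR4A3 in untreated cells, below that of NR4A3 at 40 min, and below those of EGR4 and the NR4A genes at 60 min. The interval of NR4A3 lay above that of NR4A1 at 40 min and above that of EGR4 at 60 min, and the intervals of all other pairs overlapped. By stretch, EGR1 had values of -0.73, -0.70 and -1.09 from 250 to 1000 bp for the 3 times, with intervals below 0. NR4A3 had values of 0.46, 0.44 and 0.62 from -1000 to -200 bp, with intervals above 0. The medians over all promoters in this stretch were above 0 too (0.23, 0.19 and 0.20), and NR4A3 stood at percentiles 64.8, 65.9 and 74.2.

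**Figure D4:**
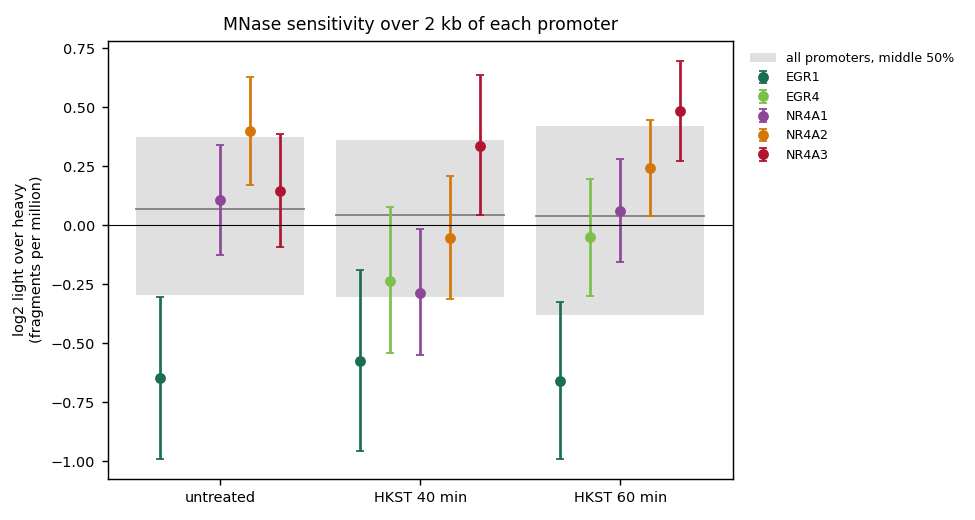
The log2 of light over heavy fragments per M over the 2 kb of each promoter, with 95% counting intervals (bars), in untreated cells and after 40 and 60 min of HKST. Grey bands are the middle 50% of all promoters and grey lines their medians (0.068, 0.044 and 0.040), and EGR1 lies below the band at each time. The points carry no pseudocount, whereas bands and lines are of rpm values with 0.119 rpm added. With it added, EGR1 (-0.55, -0.49 and -0.54) also lies below the band.

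Across all promoters in untreated cells, the median log2 of light over heavy was lower in each decile of higher GC content of the 2 kb than in the one before. The GC content was 68.8% at EGR1, in the highest decile, 62.6% at NR4A1, 61.4% at NR4A3, 56.1% at NR4A2 and 55.8% at EGR4, against a median of 55.0%. In the decile of promoters with the highest GC content, to which EGR1 belongs, the median log2 of light over heavy was -0.44 in untreated cells (middle 50% from -0.72 to -0.14), and it was 0.67 in the decile with the lowest. EGR1, at -0.55, lay within the middle 50% of its decile. NR4A1, at 0.097, and NR4A2, at 0.37, lay above the middle 50% of theirs in untreated cells (upper limits of 0.042 and 0.32). NR4A3, at 0.13, 0.31 and 0.45, lay in a decile with medians of -0.098, -0.076 and -0.096, within its middle 50% in untreated cells (upper limit of 0.18) and above it at 40 and 60 min (upper limits of 0.20 and 0.26). The part of base composition in the single values was not tested.

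Against untreated cells, NR4A1 and NR4A2 were called lower over the 2 kb at 40 min, with differences of -0.37 (-0.75 to -0.033) and -0.43 (-0.80 to -0.10), where 5.23% of promoters were called lower and 5.94% higher. NR4A3 was called higher at 60 min, with a difference of 0.32 (0.017 to 0.66), where 8.04% were called higher and 9.33% lower. The difference for EGR1 was 0.061 (-0.45 to 0.59) at 40 min and 0.011 (-0.49 to 0.47) at 60 min. In sensitivity 0 of 5 members were called over the 2 kb at 60 min minus 40 min, where 4.2% were called higher and 7.61% lower. In the light digest alone NR4A3 was called higher at 60 min over untreated cells, with a log2 ratio of 0.22 (0.050 to 0.41), where 12.3% were called higher and 15.1% lower. In the same digest NR4A2 was called lower at 40 min, with a log2 ratio of -0.20 (-0.39 to -0.031), where 9.26% were called lower and 8.71% higher. In the light digest NR4A3 was also called higher at 60 min over 40 min, with a log2 ratio of 0.21 (0.046 to 0.41), where 13.3% were called higher and 16% lower. In the heavy digest NR4A1 was called lower at 60 min over 40 min, with a log2 ratio of -0.29 (-0.60 to -0.031), where 5.56% were called lower and 4.74% higher. Downstream of the +1 window, from 250 to 1000 bp, NR4A2 was called lower at 40 min, with 232 light and 76 heavy fragments, against 329 and 114 in untreated cells, a difference of -0.50 (-1.02 to -0.013), where 3.54% were called lower and 4.61% higher. In the same stretch NR4A1 was called higher at 60 min than at 40 min, with 291 and 182 fragments, against 262 and 111 at 40 min, a difference of 0.42 (0.013 to 0.88), where 3.25% were called higher and 5.86% lower. At 20 min the heavy digest gave 179 fragments over the 2 kb of NR4A1, against 226 in untreated cells, a log2 ratio of -0.021 (-0.32 to 0.27).

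The profiles over the 2 kb were compared between times. The correlation of the summed light and heavy profile with that of untreated cells across positions was 0.88 at 40 min and 0.87 at 60 min for EGR1, 0.90 and 0.95 for NR4A1, 0.79 and 0.89 for NR4A2, and 0.91 and 0.92 for NR4A3. The median over all promoters was 0.93 and 0.94. For EGR4 the light profile alone gave 0.94 and 0.95. NR4A2 at 40 min was the lowest of these values. Neighboring positions share fragments, and EGR1 had the fewest fragments of the 5. By the correlation of the summed profile over the positions with a value, the promoters most alike were FAM127B for EGR1 (0.80), SEPSECS for EGR4 (0.87), FUT9 for NR4A1 (0.88), CPNE4 for NR4A2 (0.74) and KIF1B for NR4A3 (0.83), each the best of 10929 promoters searched.

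Other genes of the same response were taken from lists of symbols. Of 41 other immediate early genes, 34 had a promoter in the untreated, 40 and 60 min values and 17 had enough fragments between -200 and 0 bp. Their median difference in -1 sensitivity was 0.29 at 40 min, with 14 above 0 and 3 below, and 0.30 at 60 min, with 12 above 0 and 5 below, against 0.097 and 0.051 over all promoters, of which 55.4% at 40 min and 53.1% at 60 min lay above 0. Of the 17 with an interval at 40 min 0 were called, and of the 20 with one at 60 min 0 were called higher and 1 lower, where the shares over all promoters were the 1.83% higher and 1.57% lower at 40 min and the 2.29% higher and 2.36% lower at 60 min given above. The one called lower was FOSB, an AP-1 subunit, with 43 light and 57 heavy fragments at 60 min, against 67 and 30 in untreated cells, a difference of -1.08 (-2.07 to -0.26). Among the promoters with at least 5 fragments in each digest and time, the highest values were those of TRIB1, a pseudokinase, at 40 min (0.92, -0.91 to 3.02) and KLF4, a zinc finger factor, at 60 min (1.02, -0.66 to 3.24), and neither was called. DUSP6, a phosphatase of ERK, had the lowest of these values at 40 min (-0.16, -1.85 to 1.62).

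Of 30 upstream regulators and partners of these genes, 24 had a promoter there and 8 were measurable. Their medians were 0.013 at 40 min and 0.29 at 60 min, against 0.097 and 0.051 over all promoters. Of the 9 with an interval, 0 were called higher and 1 lower at each of these times. Over all promoters 1.83% were called higher and 1.57% lower at 40 min, and 2.29% and 2.36% at 60 min. MEF2A, a MADS box factor that acts on NR4A1, was called lower at 40 min (-1.35, -2.73 to -0.30), with 41 light and 23 heavy fragments, against 50 and 15 in untreated cells. It was not called at 60 min (1.11, -0.18 to 2.75). ATF1, a factor of the CREB family, was called lower at 60 min (-0.95, -2.16 to -0.054), with 80 light and 37 heavy fragments, against 91 and 15 in untreated cells. MAPK3, the kinase ERK1, had the highest value at 40 min among the 3 promoters with enough fragments (-0.84, -2.50 to 0.55). Of 31 related zinc finger and nuclear receptor genes, 27 had a promoter there, and 15 at 40 min and 16 at 60 min were measurable. Their medians were -0.043 and -0.31. Of the 15 with an interval at 40 min 0 were called, and of the 16 at 60 min 0 were called higher and 1 lower. PPARG, a nuclear receptor of fat metabolism, was called lower at 60 min (-1.10, -2.32 to -0.18), with 31 light and 39 heavy fragments, against 55 and 22 in untreated cells. VDR, the vitamin D receptor, had the highest value at 60 min (1.37, -0.0075 to 3.43) and was not called. At 40 min the extremes were WT1, a zinc finger factor (0.50, -0.78 to 2.16), and RARG, a retinoic acid receptor (-1.04, -3.32 to 0.89), and neither was called.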

How the data were processed

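MNase-seq fragments of GM12878 cells were measured in 16 samples. Per the labels and the methods of the study, the authors aligned paired reads to hg19 (the processing notes name Bowtie2 2.2.2, SAMtools and bedtools), kept fragments of 140 to 200 bp, and deposited 8 tables of rpm values (windows of 60 bp, 1 every 10 bp) for fragment centers, each table a pool of 2 replicates. The tables of untreated heavy, 20 min light and 20 min heavy covered 16260, 2801 and 6779 promoters as received and ended in a partial line, which was left out. Bins without a value were left out of means. All values (100%) lay within 0.05 of a whole step of 0.5 of a fragment, and 1 fragment enters 6 windows, from which fragments were recovered and rounded to the nearest whole number, upward from 0.5.

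A promoter counted as measurable with more than 3 fragments in at least 1 digest at each time, and could be called with at least 1 fragment in each digest and time. Intervals were exact (Poisson for counts, Clopper-Pearson for ratios, conditional for differences in sensitivity) and leave out the pseudocount, which the values carry. Peaks were maxima of the mean of 5 bins over the sum of both digests at 40 and 60 min, counted over 150 bp. The members and the lists were chosen with earlier results of these data known. Genes named from a list had the highest and lowest difference among promoters with at least 5 fragments in each digest and time. The alternatives are given with their values at the end. On simulated fragments for 40 min minus untreated over 16260 promoters, the -1 interval covered the truth at 98.0% of 11325 unchanged promoters, and calls were made for 58.0% of the 181 measured promoters given a simulated shift of 2 on the log2 scale. The simulated counts were Poisson, so that they hold no spread between digests or replicates. Shifted promoters were drawn where at least 1 fragment was expected in each digest and time, so that the 58.0% need not hold for the members. Motifs were read from GRCh37 and annotation from GENCODE, and the upstream sequences of NR4A1 and NR4A2 are not reported here. Python 3.11.15, NumPy 2.4.6, SciPy 1.17.1, pysam 0.24.0 and matplotlib 3.10.9 were used.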

Additional observations from a re-analysis of the deposited data

How the results depend on the processing

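No paired analysis was possible because each deposited table pools both replicates, so that neither a block nor leaving out a replicate could be fitted. The alternatives included other pseudocounts, centering on the median of all promoters, 1 row per gene and the windows -250 to -100 bp and -300 to 0 bp. Under them 48 of 51 values over the members stayed within the limit set for a shift. For a median the limit was 0.5 of the width of the counting interval of the members' summed fragments. The limit was wide, at 1.71 log2 units for the -1 median at 40 min minus untreated, so that a move from 1.22 to -0.098 stayed within it. A count of called members was judged by whether it stayed the same or nearly so. Each member has 1 row, so that 1 row per gene could change no value. None of the called values changed sign. Of 45 medians 39 kept their sign, and some windows changed which members were measurable. The -1 median at 40 min minus untreated, 1.22, was 0.47 with a pseudocount of 0.5 of the mean and 1.82 with 0.02 of it. It was 0.10 with the window -250 to -100 bp and -0.098 with the window -300 to 0 bp. In the last window NR4A1 was measurable too, so that the median was over 4 promoters and not 3. The +1 median at 40 min minus untreated was -0.51 over 3 promoters with the window 0 to 200 bp, against 0.28 over 4 in the +1 window. EGR1, with 1.42 in the +1 window, was not among the 3. The values in the window 0 to 200 bp were -0.51 for NR4A1, -0.96 for NR4A2 and 1.16 for NR4A3. In the +1 window these genes had -0.0043, -0.94 and 0.57. How much of the shift in the median came with the change of members was not tested. The count of members called at 40 min minus untreated was 0, against 1, when at least 5 fragments were required in each digest, and also 0 at a confidence level of 0.99. Of 89 values of single members 87 kept their call. A call rests on the fragments alone, so that the pseudocounts, the centering and 1 row per gene could not change one. NR4A3 was called higher at 60 min minus untreated with the window -300 to 0 bp (1.57), and it was no longer called at 40 min with part fragments rounded down, an alternative chosen after seeing the data, since 1 fragment in each digest was required. The alternatives for 20 min minus untreated gave no value, because no member had both digests there. The -1 window at EGR1, NR4A1, NR4A2 and NR4A3 held at most 16 fragments in any digest and time. Each interval of a difference at EGR1, NR4A2 and NR4A3 spanned more than 4 log2 units. At 40 and 60 min EGR4 held between 33 and 50 fragments per digest in this window. The part of depth in the low counts was not tested.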
